A study of Mus musculus with 33 samples.

Results

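Fgf21, Gdf15 and the co-receptor gene Klb were examined in liver and kidney of male mice under ER stress. The 3 genes were found by their Ensembl identifiers (ENSMUSG00000030827, ENSMUSG00000038508 and ENSMUSG00000029195) and are 3 of 50420 gene identifiers in the 6 deposited tables, each of which holds all 3. The tables cover C57BL/6J (B6) mice, CAST/EiJ (CAST) mice and F1 hybrids of a B6 mother and a CAST father, with a table for each genotype and tissue. Mice of 15 to 23 weeks were injected with tunicamycin (TM, 1 mg/kg), which blocks N-linked glycosylation in the ER, or with the vehicle DMSO (control). The liver tables hold 2 TM and 3 control samples for B6 and for F1, and 3 TM and 2 control samples for CAST. Each kidney table holds 3 of either kind. The sample records place collection at 24 h, which differs from the interval in the study's methods. No mouse carried a transgene or a deletion, and the DMSO mice serve as controls for handling and vehicle. Reads of the parental strains were aligned to strain genomes and reads of the hybrids, with another aligner, to a masked genome. Outlying samples had been dropped by the authors on how TM and control clustered, which can make the groups look more separate. The study used 6 mice of each genotype and took both organs, so liver and kidney samples of a genotype share mice, but the labels do not say which. The tests between tissues, and those averaged over the 6 tables, therefore treat samples of shared mice as independent. The p-values measure the spread between these samples.

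FGF21 is a fasting and stress hormone, made mainly by liver, that signals through FGF receptors only where beta-Klotho, the product of Klb, is present. GDF15 is a distant member of the TGF-beta family that is secreted by stressed cells of many tissues and lowers food intake through the receptor GFRAL, which is found in the hindbrain and signals with RET. Both genes are known targets of the integrated stress response, in which phosphorylation of eIF2alpha favors translation of the transcription factor ATF4, and of CHOP (Ddit3), which acts downstream. The comparisons ask how far the hormone genes responded to TM, and whether the response depended on tissue or genotype.

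Fgf21 lies at chr7:45613886-45615490 on the minus strand (3 exons, 951 exonic bases), Gdf15 at chr8:70629393-70632456 on the minus strand (3 exons, 1852 exonic bases) and Klb at chr5:65348314-65384007 on the plus strand (5 exons, 4549 exonic bases) in GENCODE M21 on GRCm38. The deposited tables carry no coordinates, and no other gene of that annotation overlaps any of the 3. The promoter windows below run from 250 bases before to 50 bases after a RefSeq start on GRCm38.p6. They are shown because the 2 hormone genes rose together in every table, as described next. Capitals mark the C/EBP-ATF composite site (TGATGNAAT, the kind of site that ATF4 and CHOP bind), the E-box (CACGTG) and the TATA box (TATAAA), each searched on both strands.
Fgf21, chr7:45615441-45615740, minus strand: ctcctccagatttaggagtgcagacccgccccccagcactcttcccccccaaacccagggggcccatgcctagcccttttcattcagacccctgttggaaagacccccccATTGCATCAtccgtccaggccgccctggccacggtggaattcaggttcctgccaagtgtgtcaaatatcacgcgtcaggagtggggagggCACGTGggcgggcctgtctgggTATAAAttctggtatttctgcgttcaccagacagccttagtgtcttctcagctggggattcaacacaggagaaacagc
Gdf15, chr8:70632046-70632345, minus strand: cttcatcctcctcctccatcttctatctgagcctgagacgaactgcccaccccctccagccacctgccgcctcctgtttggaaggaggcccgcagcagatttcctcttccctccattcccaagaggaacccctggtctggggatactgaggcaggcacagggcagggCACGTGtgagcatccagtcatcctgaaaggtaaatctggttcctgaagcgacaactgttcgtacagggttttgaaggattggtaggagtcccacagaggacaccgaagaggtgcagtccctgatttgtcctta

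The Fgf21 window held 1 composite site, on the opposite strand and beginning 140 bases before the start, where 0.965% of 32851 RefSeq windows of this length held at least 1. It also held 1 E-box 50 bases before the start (7.15% of windows), 1 TATA box 28 bases before it (13.6% of windows) and 2 copies of the ATF6 core CCACG (32.8% of windows), of which 1 overlaps the E-box. Gdf15 has 2 RefSeq starts. The printed window, of the downstream start, held an E-box 83 bases before the start and no other of the 7 motifs searched, and the window of the upstream start (chr8:70632407-70632706) held none. The Klb window (chr5:65348161-65348460) held 1 CCACG and none of the others. The cAMP response element TGACGTCA (1.79% of windows), the ER stress response element (0.119%) and the PPAR response element (0.0396%) were in none of the 4 windows. A match gives letters only and does not show that a factor binds.

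The libraries held between 3355262 and 23094521 reads in genes (median 13143216). Every deposited value was within 0.01 of a whole read after division by 1 factor per library. The repeat-rich gene Gm10800 took 61.5% of the reads of F1 liver control 2, and 4 libraries (B6 liver control 2, B6 liver TM 3, F1 liver TM 2 and F1 kidney control 1) held more than 400 CPM (reads relative to library size) of olfactory and vomeronasal receptor genes. Results were repeated without these libraries. Marker levels here are CPM scaled over all 33 libraries by TMM (a trimmed mean of ratios between libraries). All 6 hepatocyte markers were above 1 CPM in every liver group and all 8 kidney tubule and podocyte markers in every kidney group. Summed hepatocyte markers were lower with TM, at 43717 to 58031 CPM against 76431 CPM or more in B6 controls. They were 51807 to 61231 against 82323 or more in CAST and 21566 to 47813 against 56363 or more in F1. Alb dominated these sums, with a liver median of 44461 CPM against at most 6130 for any other hepatocyte marker. Summed endothelial markers were also lower with TM in B6 liver (158 to 241 against 253 to 469) and CAST liver (195 to 323 against 342 to 403). They overlapped in F1 liver. Summed tubule markers were 11322 to 13795 CPM with TM against 20733 to 23728 in B6 controls. In CAST they were 10809 to 12361 against 17379.7 to 27138, and in F1 they overlapped on this scale (12427 to 13333 against 10170.5 to 17726). Kap had a kidney median of 7861 CPM, the largest of these markers. TMM multiplied the library size by 1.88 in F1 kidney control 1 and by 0.208 in F1 liver control 2. The F1 sums therefore depend on this scaling, and they were not compared on plain CPM. The part of these shifts in the results was not tested, and in bulk samples fewer cells of a type and less RNA per cell cannot be told apart.

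Fgf21 rose with TM in both tissues of all 3 genotypes, and Gdf15 did too. Values below are normalized counts, that is, reads per gene that the authors divided by a size factor within each table. In B6 liver Fgf21 was at 760.3 and 462 in TM samples, against 76.1, 23.9 and 109 in controls. CAST livers had 447, 807 and 1687 with TM, against 36.4 and 6.36 in controls. F1 livers had 219 and 76.7 with TM, against 20.8, 11.5 and 1.96 in controls. The TM and control samples did not overlap in any of the 3 livers, and every control liver held Fgf21 reads, from 2 reads in F1 liver control 3 to 119 reads in B6 liver control 3.

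B6 kidneys had 324, 204 and 233 normalized counts of Fgf21 with TM, against 1.07, 0 and 0 in controls. CAST kidneys had 849, 770.4 and 1207 with TM, against 3.57, 0.874 and 3.76 in controls. F1 kidneys had 495, 253 and 308 with TM, against 10.4, 3.06 and 8.61 in controls. The groups were again apart in each table, with at least 155 reads in each TM kidney and at most 11 in any control kidney. The 3 B6 control kidneys held 1 read of Fgf21 together (95% exact Poisson interval 0.0253 to 5.57 reads), and the 2 at 0 allow up to 0.230 and 0.219 CPM (3 reads, counting error only). On these reads the ratio of TM over control in B6 kidney was 795, with a 95% interval of 142 to 31439 that covers counting error only.

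By limma on log2 of the normalized count plus 1, Fgf21 rose by 3.32 ± 0.55 in B6 liver (SE, adjusted p = 0.00393), by 5.68 ± 0.65 in CAST liver (adjusted p = 0.000317) and by 3.81 ± 0.75 in F1 liver (adjusted p = 0.00234). In kidney it rose by 7.61 ± 0.39 in B6 (adjusted p = 1.50e-06), by 8.07 ± 0.37 in CAST (adjusted p = 6.29e-06) and by 5.47 ± 0.40 in F1 (adjusted p = 3.01e-05). Adding 1 understates the change of a gene near 0, and edgeR on the recovered reads gave 9.17 in B6 kidney and 8.40 in CAST kidney. Fgf21 and Gdf15, 2 of the 3 genes, were called higher (adjusted p below 0.05 and at least 1.5-fold) in each of the 6 tables. No member was called lower. Of all genes tested, 4.8% were called higher in B6 liver, 11.1% in CAST liver, 3.42% in F1 liver, 9.73% in B6 kidney, 8.69% in CAST kidney and 7.54% in F1 kidney. Ordered by log2 fold change from the top, Fgf21 stood at place 5 in B6 kidney, 2 in CAST kidney and 10 in F1 kidney, and at place 114 in B6 liver, 5 in CAST liver and 71 in F1 liver.

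**Figure D1:**
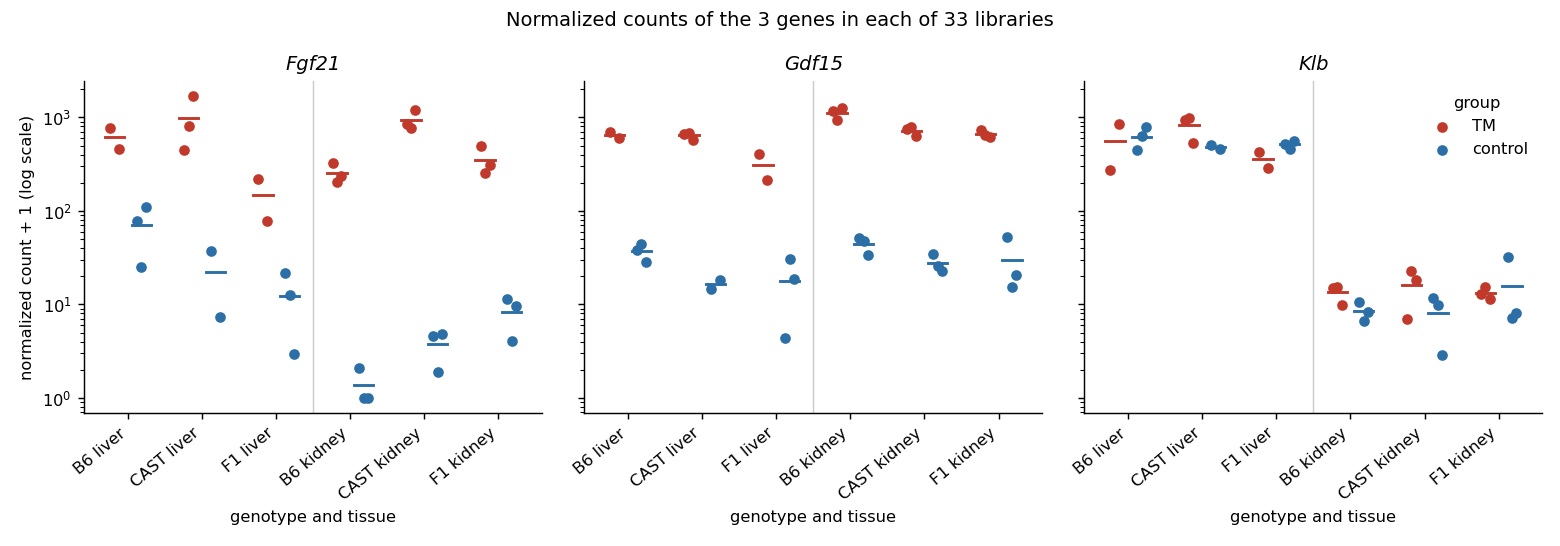
Normalized counts plus 1 (log axis) of Fgf21, Gdf15 and Klb in each of 33 libraries, for each genotype and tissue, with TM samples in red on the left and control samples in blue on the right. Points are libraries and bars are group means. TM and control points are apart for Fgf21 and Gdf15 in every table, and Klb reaches 994 in the highest liver and at most 31.2 in any kidney.

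Control means of Gdf15 ran from 15.3 to 43.2 normalized counts over the 6 tables, against 0.357 to 69.6 for Fgf21. Single control samples had 3.33 to 52.0 normalized counts of Gdf15. The log2 fold changes of Gdf15 spanned a narrower range than those of Fgf21. In B6 liver Gdf15 was at 701 and 599 normalized counts with TM, against 37.1, 43.4 and 27.4 in controls. CAST livers had 663, 676 and 577 with TM, against 13.4 and 17.3 in controls. F1 livers had 402 and 214 with TM, against 3.33, 29.9 and 17.6 in controls. The lowest Gdf15 value with TM, in F1 liver TM 2, was above every F1 liver control.

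In B6 kidneys Gdf15 was at 1162, 938 and 1271 normalized counts with TM, against 50.4, 46.8 and 32.4 in controls. CAST kidneys had 756, 782 and 629 with TM, against 33.4, 24.5 and 21.6 in controls. F1 kidneys had 733, 646 and 617 with TM, against 52.0, 14.5 and 19.6 in controls. No kidney table had an overlap between TM and control samples. Groups that do not overlap, with TM higher, were found for 18.2% of genes in B6 liver, 25.4% in CAST liver, 15.2% in F1 liver, 20.3% in B6 kidney, 18% in CAST kidney and 19.5% in F1 kidney.

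The limma log2 fold changes of Gdf15 were 4.16 ± 0.32 in B6 liver (SE, adjusted p = 9.75e-05), 5.30 ± 0.24 in CAST liver (adjusted p = 1.01e-05) and 4.44 ± 0.65 in F1 liver (adjusted p = 0.000156). In kidney they were 4.68 ± 0.19 in B6 (adjusted p = 4.30e-07), 4.73 ± 0.21 in CAST (adjusted p = 5.92e-06) and 4.69 ± 0.38 in F1 (adjusted p = 5.36e-05). By log2 fold change Gdf15 stood at places 20, 16 and 19 from the top in B6, CAST and F1 kidney, and at places 44, 9 and 33 in the livers of the same genotypes. Averaged over the 6 tables, the TM effect was 5.66 ± 0.29 for Fgf21 (adjusted p = 2.09e-15) and 4.67 ± 0.19 for Gdf15 (adjusted p = 2.29e-17), where 12.3% of genes were called higher. F1 liver held 2 TM samples, and leaving out either leaves 1 that is assumed to vary like the controls. Without F1 liver TM 1 the log2 fold change was 3.06 for Fgf21 (adjusted p = 0.293) and 3.99 for Gdf15 (adjusted p = 0.104), and without F1 liver TM 2, one of the libraries rich in receptor reads, it was 4.56 (adjusted p = 0.00355) and 4.89 (adjusted p = 0.00042). In F1 liver Fgf21 also missed the threshold by edgeR (adjusted p = 0.0504), and both genes missed it in F1 liver and in B6 liver when limma was run without its trend.

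**Figure D2:**
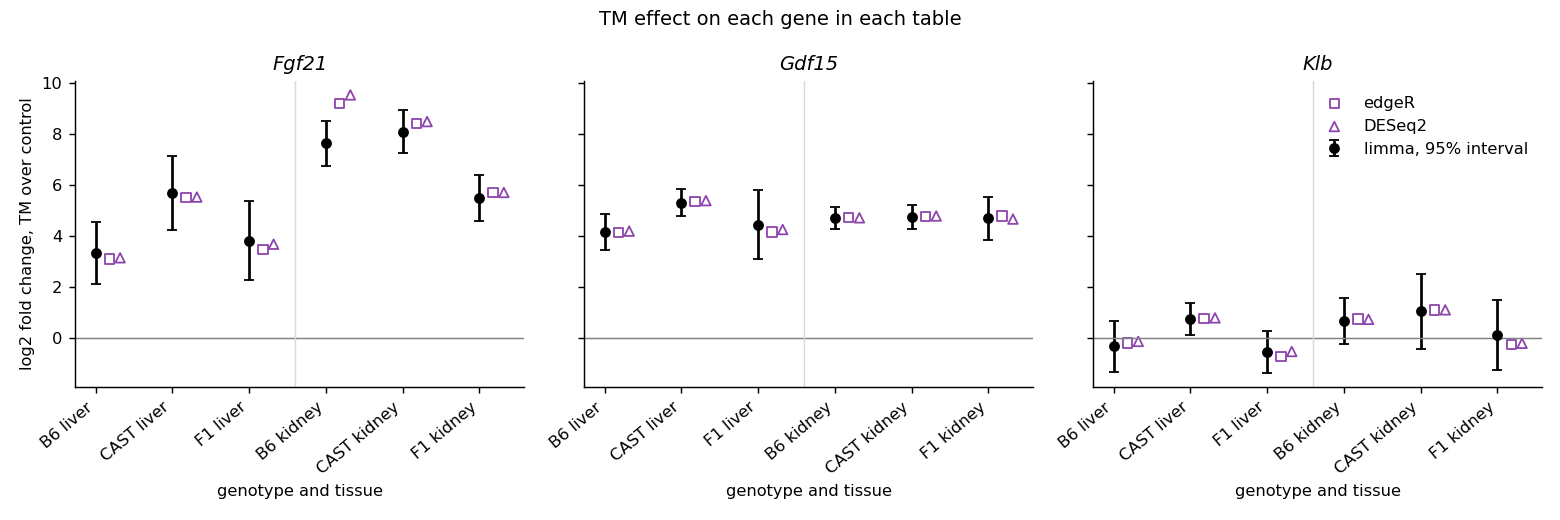
Log2 fold change of TM over control for Fgf21, Gdf15 and Klb in each genotype and tissue. Black points are limma estimates with 95% intervals, and open purple squares and triangles are edgeR and DESeq2 estimates on the recovered reads. The limma estimates span 3.32 to 8.07 for Fgf21, 4.16 to 5.30 for Gdf15 and -0.55 to 1.05 for Klb. Some edgeR and DESeq2 points lie outside these ranges, up to 9.51 for Fgf21 in B6 kidney by DESeq2.

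Klb, whose product lets a cell sense FGF21, was not called in any of the 6 tables. B6 livers had 276 and 848 normalized counts with TM, against 443, 634 and 792 in controls. CAST livers had 944, 994 and 536 with TM, against 501 and 454 in controls. F1 livers had 427 and 284 with TM, against 524, 454 and 557 in controls. The groups overlapped in B6 liver. All 3 CAST TM livers were above their controls and both F1 TM livers were below theirs, which 25.4% of genes did in the first direction in CAST liver and 15.9% in the second in F1 liver.

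The log2 fold change of Klb was -0.33 in B6 liver (95% interval -1.32 to 0.67, adjusted p = 0.798), 0.74 in CAST liver (0.10 to 1.37, adjusted p = 0.0949) and -0.55 in F1 liver (-1.37 to 0.27, adjusted p = 0.597). Klb values in liver depended on single libraries. In CAST liver it was called higher without CAST liver TM 3 (1.02, adjusted p = 0.0312) and by DESeq2 (0.79, adjusted p = 0.0499, over a range of 0.0312 to 0.271 in 15 alternatives). In B6 liver it was 0.48 without B6 liver TM 1 (adjusted p = 0.618), and -1.10 without the libraries rich in receptor reads (adjusted p = 0.00424, a fit with 1 TM sample that is assumed to vary like the controls).

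Kidneys held few Klb reads, between 2 and 22 per library. In B6 kidney Klb was at 14.0, 14.5 and 8.96 normalized counts with TM, against 9.65, 5.61 and 7.19 in controls. CAST kidneys had 5.97, 21.8 and 17.4 with TM, against 10.7, 8.74 and 1.88 in controls. F1 kidneys had 11.99, 14.2 and 10.5 with TM, against 31.2, 6.11 and 7.04 in controls. The groups overlapped in each kidney table. The 95% intervals of the log2 fold change (B6 kidney -0.24 to 1.57, CAST kidney -0.41 to 2.51, F1 kidney -1.27 to 1.47) leave room for a change of more than 2-fold at this depth. Markers of adipocytes, which also express Klb, summed to 27.8 to 240.0 TMM-scaled CPM in TM kidneys and 52.3 to 191 in control kidneys. The part of adipocytes in the kidney values was not tested.

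For levels across tables, reads were scaled over all 33 libraries by TMM (a trimmed mean of ratios between libraries) and are given as CPM. The tables come from different alignments, so these levels are a description. Fgf21 was highest in CAST liver with TM, at 120 ± 75 CPM (SD, n = 3), followed by CAST kidney with TM (57.4 ± 13.5, n = 3) and B6 liver with TM (56.4 ± 28.3, n = 2), which overlapped. F1 kidney (25.5 ± 8.6, n = 3), F1 liver (15.9 ± 12.3, n = 2) and B6 kidney (14.8 ± 3.9, n = 3) with TM came next and each overlapped its neighbor. Among controls, B6 liver had 7.59 ± 5.32 CPM (n = 3), CAST liver 2.88 ± 2.89 (n = 2) and F1 liver 1.33 ± 1.25 (n = 3). Control kidneys stood last, at 0.50 ± 0.24 CPM in F1, 0.172 ± 0.103 in CAST and 0.0215 ± 0.0373 in B6 (n = 3 each). The B6 liver control level (1.90 to 12.4 CPM) overlapped that of F1 liver with TM, where the lower sample had 7.22 CPM.

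Gdf15 levels split by treatment, with each TM library above each control library. The share of all genes that split this way over the 6 tables was not counted. Within single tables, 15.2% to 25.4% of genes had TM above control with no overlap. The 6 TM groups had means between 32.6 CPM in F1 liver and 79.9 CPM in CAST liver (with plain CPM the highest was B6 kidney at 85.7, against 63.2 in CAST liver), and the 6 control groups had means between 1.66 CPM in CAST kidney and 3.56 CPM in B6 liver. Neighboring groups overlapped within each treatment, except that B6 liver control lay above B6 kidney control. Klb split by tissue instead, with means between 37.3 CPM in F1 liver with TM and 104 CPM in CAST liver with TM, against at most 0.960 CPM in any kidney group. Every liver library (26.8 to 131 CPM) was above every kidney library (0.116 to 1.90 CPM), as for 3.1% of 22899 genes. Plain CPM moved the group mean by more than its SD in 16 of 36 cases, of which F1 liver control for Klb changed to 29.9 CPM, against 60.6 CPM with TMM.

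The tissues were next compared for the same genotype and treatment. With TM, Fgf21 was at 36.3 and 76.4 CPM in B6 liver and 11.8 to 19.2 CPM in B6 kidney, and liver and kidney overlapped in CAST and in F1. In controls, Fgf21 was at 1.90 to 12.4 CPM in B6 liver and at most 0.0646 CPM in B6 kidney. The CAST control livers had 0.835 and 4.92 CPM and the CAST control kidneys 0.0536 to 0.232 CPM, and the F1 control tissues overlapped. Markers of pancreatic acinar cells, which also express Fgf21, summed to 919 and 738 CPM in F1 liver controls 2 and 3 and to 201 CPM in CAST liver control 2. They were at 44.6 CPM or below in the other 30 libraries. F1 liver control 1, with 30.8 CPM of these markers, had 2.70 CPM of Fgf21, against 1.04 and 0.256 CPM in controls 2 and 3. CAST liver control 2 had 4.92 CPM of Fgf21 and CAST liver control 3, with 7.76 CPM of the markers, had 0.835 CPM. The part of this signal in the liver controls was not tested.

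In B6, and averaged over genotypes, the TM effect on Fgf21 was smaller in liver than in kidney. As a difference of log2 fold changes, liver minus kidney was -4.30 ± 0.77 in B6 (SE, adjusted p = 0.0115), -2.39 ± 0.89 in CAST (adjusted p = 0.202) and -1.66 ± 1.03 in F1 (adjusted p = 0.567). Only the B6 difference passed the threshold, where 2.83% of 22611 genes were called lower, against 1.63% in CAST and 0.953% in F1. Averaged over genotypes the difference was -2.78 ± 0.58 (adjusted p = 0.00104), and 9.63% of genes were called lower. For Gdf15 it was -0.53 ± 0.35 in B6, 0.56 ± 0.31 in CAST and -0.25 ± 0.94 in F1, and -0.07 averaged over genotypes (95% interval -0.86 to 0.72, adjusted p = 0.933). For Klb the averaged difference was -0.65 (-1.57 to 0.27, adjusted p = 0.391). Because 1 is added to each value, the scaling of a table does not cancel in this difference for a gene near 0. The Fgf21 difference in B6 was -5.08 with a pseudocount of 0.5 (adjusted p = 0.0105), -2.36 with a pseudocount of 5 (adjusted p = 0.0549), -5.92 by edgeR (adjusted p = 0.0189) and -6.34 by DESeq2 (adjusted p = 0.000122).

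**Figure D3:**
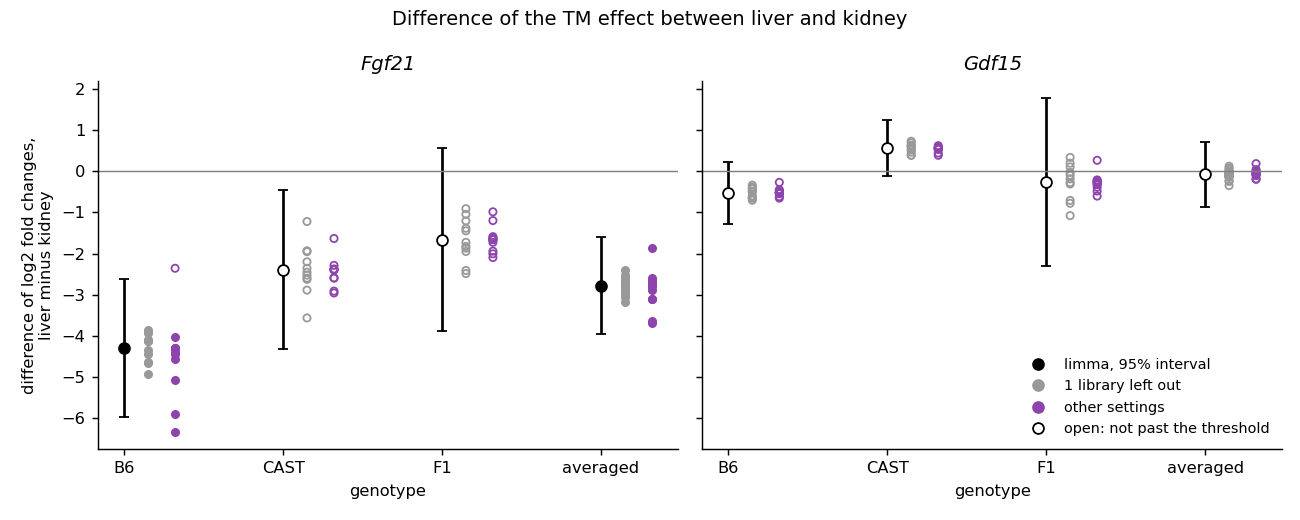
Difference of log2 fold changes, liver minus kidney, for Fgf21 and Gdf15 in B6, CAST, F1 and averaged over genotypes. Black points are limma estimates with 95% intervals, grey points leave out 1 library each, purple points are the other settings, and open points did not pass the adjusted p threshold. All Fgf21 points are below 0, and the lowest is -6.34 in B6 by DESeq2.

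Genotypes were compared within a tissue, again through the TM effects. In kidney the TM effect on Fgf21 in F1 minus the mean of both parents was -2.37 ± 0.53 on the log2 scale (95% interval -3.47 to -1.27) and did not pass the threshold over all genes (adjusted p = 0.177), where 0.0477% of genes passed as lower. It was -1.41 with a pseudocount of 5 and -3.24 by DESeq2. The F test of any genotype dependence gave an adjusted p of 0.229 for Fgf21 in kidney, where 0.0867% of 23060 genes passed, and DESeq2 gave 0.0197 and edgeR 0.496 (range 0.0146 to 0.612 over all alternatives). Without F1 kidney control 2, the F1 difference was -2.83 (adjusted p = 0.0374). No other of the 18 fits with 1 library left out passed. Without F1 kidney control 1, rich in receptor reads, it was -2.08 (adjusted p = 0.505), and edgeR gave -3.10 (adjusted p = 0.711). With same-numbered samples blocked it passed (adjusted p = 0.0164), although such samples did not all deviate together in F1 kidney. The difference rests on control kidneys with at most 11 reads of Fgf21 each. CAST minus B6 was 0.46 ± 0.61 for Fgf21 in kidney and had the opposite sign by edgeR (-0.71) and DESeq2 (-1.03). For Gdf15 in kidney, CAST minus B6 was 0.05 (95% interval -0.88 to 0.99) and F1 minus the parental mean was -0.01 (-0.82 to 0.79).

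In liver CAST minus B6 was 2.36 ± 1.17 for Fgf21 and 1.14 ± 0.79 for Gdf15, and F1 minus the parental mean was -0.69 ± 1.01 and -0.29 ± 0.68, none with an adjusted p below 0.99. No gene passed the F test in liver by limma (0% of 20957 genes, 768 at an unadjusted p below 0.05) or by edgeR, and 106 did by DESeq2, which did not include these genes. The interval for Fgf21 in liver (CAST minus B6, -0.11 to 4.82) covers differences of more than 10-fold, and a like response of the genotypes was not shown.

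Both hormone genes can be set against each other only per length of transcript. With TM, Gdf15 over Fgf21 in TMM-scaled CPM per exonic kilobase was 1.84 to 2.80 in the 3 B6 kidneys, 0.267 to 0.521 in the 3 CAST kidneys and 0.760 to 1.31 in the 3 F1 kidneys. The order of B6, F1 and CAST kidneys had no overlap, and this ratio within a library needs no scaling between libraries. How many other gene pairs order the genotypes this way was not counted. Neither gene passed the F test for genotype dependence of the TM effect in kidney (adjusted p = 0.229 for Fgf21 and 0.999 for Gdf15). In liver with TM the B6 samples had 0.474 and 0.666, the CAST samples 0.176 to 0.761 and the F1 samples 0.941 and 1.43. Fgf21 was therefore the more abundant hormone transcript per kilobase in all 3 CAST TM livers, both B6 TM livers and all 3 CAST TM kidneys, and Gdf15 in all 3 B6 TM kidneys. In control kidneys Gdf15 was the higher of the pair in all 9 libraries. Whether the strain genomes recover the reads of each gene alike was not tested.

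**Figure D4:**
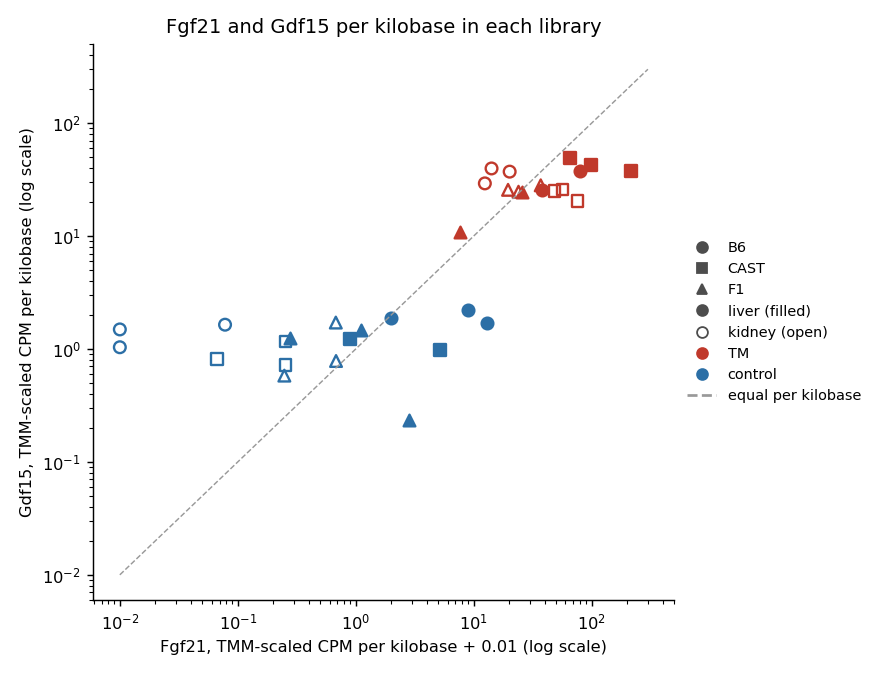
Gdf15 (vertical, TMM-scaled CPM per kilobase) against Fgf21 (horizontal, the same plus 0.01) on log axes, 1 point per library. Shapes give the genotype, filled points are liver and open points kidney, TM is red and control blue, and the dashed line marks equal levels. TM libraries lie at Gdf15 of 10.9 or more and control libraries at 2.22 or less, and the B6 kidneys with TM lie above the dashed line while the CAST kidneys with TM lie below it.

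The FGF receptor genes Fgfr1 to Fgfr4 were listed with the co-receptor genes Kl and Klb, as 6 genes. Fgfr2, which encodes an FGF receptor, fell in all 3 livers, by 1.11 ± 0.30 in B6 (SE, adjusted p = 0.0395), 1.85 ± 0.31 in CAST (adjusted p = 0.00244) and 1.86 ± 0.39 in F1 (adjusted p = 0.00398) on the log2 scale. Its level was 10.6 to 30.3 CPM in TM livers and 37.9 to 68.7 CPM in control livers, with no overlap in any genotype, as for 19.9%, 25.6% and 15.9% of genes in B6, CAST and F1 liver. In kidney the Fgfr2 log2 fold changes were -0.11 in B6, -0.07 in CAST and -0.52 in F1, and none was called. The difference of liver minus kidney was -1.37 ± 0.19 averaged over genotypes (adjusted p = 9.89e-06). Within genotypes it passed the threshold in CAST (-1.77, adjusted p = 0.0416) but not in B6 (-1.01, adjusted p = 0.0697) or F1 (-1.34, adjusted p = 0.0656).

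Fgfr3 fell by 1.15 ± 0.28 in CAST liver (SE, adjusted p = 0.0167) and was not called elsewhere. Fgfr1, the main partner of beta-Klotho in fat, and Fgfr4, its partner for FGF15 in hepatocytes, were called in no table, with log2 fold changes of -1.11 to -0.22 and -0.94 to 0.46. Kl, which encodes alpha-Klotho, the co-receptor for FGF23, was a kidney gene (108 to 506 CPM in kidney and at most 3.68 CPM in liver). It fell by 0.59 ± 0.12 in B6 kidney (adjusted p = 0.00669), at 292 to 338 CPM with TM and 479.97 to 506 CPM in controls (no overlap, as for 18.7% of genes), and its log2 fold changes in CAST and F1 kidney were -0.27 and -0.09. Over the list, called genes numbered 1, 2 and 1 in B6, CAST and F1 liver and 1, 0 and 0 in the kidneys, all lower, where 6.45%, 10.4% and 4.15% of genes were called lower in the livers and 7.77%, 4.7% and 2.57% in the kidneys.

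**Figure D5:**
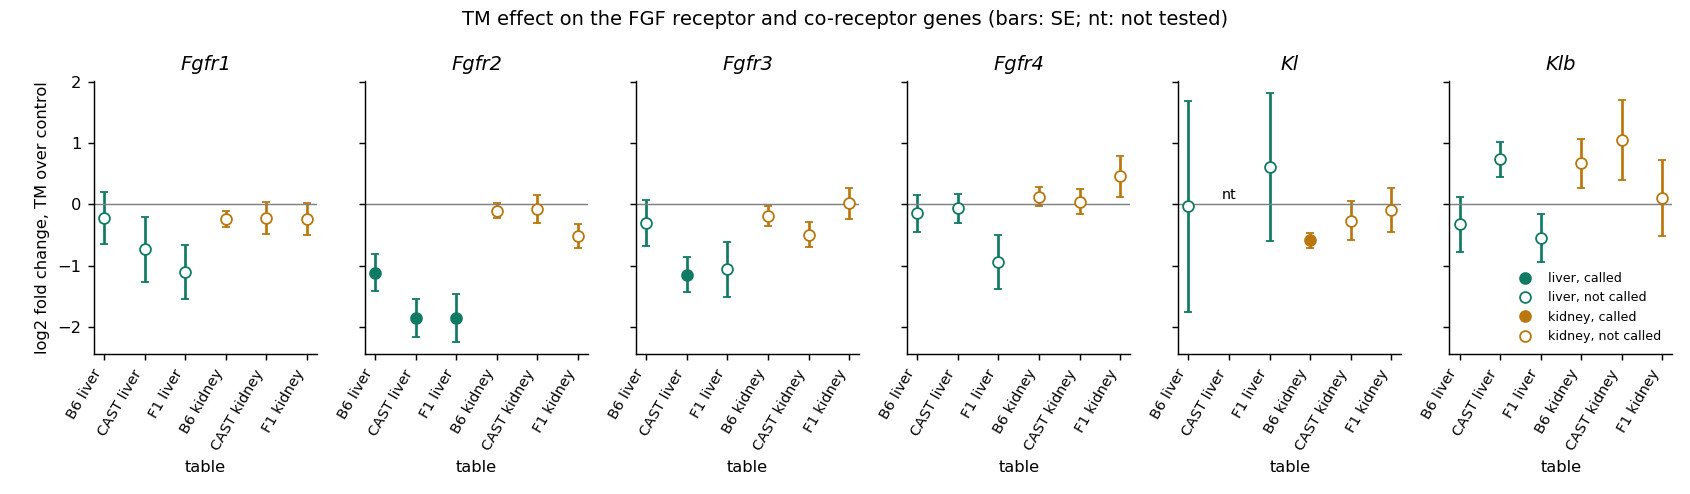
Log2 fold change of TM over control (points, with SE bars) of 4 FGF receptor genes and of Kl and Klb in each of the 6 tables. Liver is green and kidney brown, filled points were called and open points were not, and nt marks Kl in CAST liver, which was not tested. The 3 filled liver points of Fgfr2 lie between -1.86 and -1.11.

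Other ligands and receptors of the hormones were barely detected. Fgf15, the intestinal endocrine FGF, had 33 reads over all 33 libraries, Fgf23, the bone hormone of phosphate balance, had 55, and Gfral, which encodes the GDF15 receptor, had 24. Ret had 275 reads and Fap, whose product cleaves FGF21, had 396, and neither was called in any table where it was tested. Of 22 genes for FGF receptor signalling and feedback, 1, 1 and 0 were called higher in B6, CAST and F1 liver and 7, 4 and 3 in the kidneys, and 0, 2 and 0 were called lower in the livers and 1, 1 and 2 in the kidneys. For this list and those that follow, the shares of all genes called higher were 4.8%, 11.1% and 3.42% in the livers and 9.73%, 8.69% and 7.54% in the kidneys, and the shares called lower were 6.45%, 10.4% and 4.15% in the livers and 7.77%, 4.7% and 2.57% in the kidneys. Among the signalling genes, Shc1, an adaptor of receptor tyrosine kinases, rose in all 3 kidneys and in CAST liver (1.02 ± 0.09 averaged over tables). Dusp4, a MAP kinase phosphatase, rose in all 3 kidneys and in B6 liver (averaged effect 1.31 ± 0.16). Frs3, which encodes an FGF receptor substrate, fell in the 3 kidneys by 1.48 in B6, 1.97 in CAST and 1.96 in F1.

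Among 23 relatives of GDF15 in the TGF-beta family, 22 were in the tables and 13 to 18 passed the filter per table. Called higher were 0, 1 and 0 in B6, CAST and F1 liver and 2, 1 and 1 in the kidneys, and called lower were 3, 1 and 0 in the livers and 3, 2 and 1 in the kidneys. Bmp6, a regulator of iron balance in liver, rose by 1.52 ± 0.15, 1.70 ± 0.34 and 1.55 ± 0.31 in B6, CAST and F1 kidney (SE). Of the 5 proprotein convertase genes, whose products process secreted precursors, none was called higher in any table. Pcsk5 was called lower in CAST liver (-1.13, adjusted p = 0.0101) and in B6 kidney (-0.60, adjusted p = 0.00551).

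The list of 19 transcription factors and other regulators of either hormone gene had 6 called higher in each liver table and 12, 9 and 8 in B6, CAST and F1 kidney, and 4, 3 and 3 called lower in the livers and 2, 2 and 1 in the kidneys, with medians of -0.03 to 0.41 in the livers and 0.71 to 1.124 in the kidneys, where the medians of all genes were -0.04 to 0.21 and -0.13 to -0.01. Atf4 rose in all 6 tables, by 2.36 to 2.75 in the livers and 3.38 to 3.75 in the kidneys. Averaged over genotypes its rise was smaller in liver (liver minus kidney -1.001 ± 0.179, adjusted p = 0.000208). Atf3, a stress-induced factor of the same family, rose by 5.50 to 7.81, and its difference was -0.94 (adjusted p = 0.219). The difference for Ddit3, which rose by 6.30 to 6.93, was -0.10 ± 0.34 (adjusted p = 0.887). Trib3, a target of ATF4 and CHOP, had a difference of -1.33 ± 0.39 (adjusted p = 0.0208).

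Of 23 other secreted stress or metabolic hormones, 4, 6 and 4 were called higher in B6, CAST and F1 liver and 7, 7 and 4 in the kidneys, and 4, 5 and 2 were called lower in the livers and 1, 0 and 2 in the kidneys. Manf and Creld2, which encode secreted ER stress factors, rose in all 6 tables, by 4.199 ± 0.140 and 5.47 ± 0.15 averaged over tables. Angptl8, a liver regulator of lipoprotein lipase, rose in all 3 kidneys by 3.52 in B6, 3.74 in CAST and 3.34 in F1 and was called in no liver. Its difference of liver minus kidney was -3.27 ± 0.44 averaged over genotypes (adjusted p = 4.61e-06). Areg, an EGF receptor ligand, rose in the 3 kidneys and in CAST liver, with a difference of -4.70 ± 0.53 (adjusted p = 3.47e-07).

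The genes whose levels followed each member most closely were taken from 11237 genes by Pearson correlation of log2(CPM + 1) over the 33 libraries, which share tables and depth. For Fgf21 these were Derl3 (r = 0.938), Atf3 (0.936), Ddit3 (0.934), Trib3 (0.927) and Tnfrsf12a (0.925). With the mean of each table removed they were Ddit3 (0.953), Wars, Atf3, Chac1 and Herpud1 (0.951). For Gdf15 they were Pvr (0.975), Bhlha15, Ddit3, Dnajb9 and Tnfrsf12a (0.951), and with table means removed Derl3 (0.980), Pvr, Ddit3, Trib3 and Tnfrsf12a (0.970). Klb levels followed Creb3l3 (0.991), Lipc, Aqp9, Fetub and Asgr2 (0.990), a contrast of liver and kidney libraries. With table means removed the closest gene to Klb was Aqp9 at 0.644, followed by Klf11, Hhip, Creb3l3 and Rarres1 (0.611). Fgf21 and Gdf15 had r = 0.891 with each other, and 0.940 with table means removed, while Klb had 0.163 with Fgf21 and 0.109 with Gdf15 on the second scale. TM and control libraries are pooled on both scales, so genes that rose strongly with TM correlate by that alone. Shared regulation was not tested.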

How the data were processed

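RNA-seq of liver and kidney gave 33 libraries. Per the labels and the study's methods, the authors aligned parental reads with Bowtie2 2.2.9 and F1 reads with STAR 2.6, used SAMtools 1.12, and deposited signal values that are reads per gene divided by DESeq2 1.28.1 size factors within each table; the counting tool and strand setting are not given in the sources used here. These tables were normalized separately, so tests ran within a table or on differences of effects. From the values, log2(normalized count + 1) was tested with limma 3.58.1 (trend, Benjamini-Hochberg) for genes averaging 5 or more, and a call needed an adjusted p under 0.05 and, for TM against control, 1.5-fold. All adjusted p-values come from limma unless edgeR 4.0.16 or DESeq2 1.42.0, run on the recovered whole reads (100% of 1294170 values within 0.01), is named. The fit was tested on simulated data. Depth was 3355262 to 23094521 reads, and intervals on reads cover counting error only. Members and gene lists were chosen with earlier results of these data known. The genes named were the 3 members, the receptors, ligands and Fap whatever their values, from each other list up to 4 genes with the largest averaged effect among those called in at least 3 tables, and the 5 closest by correlation among genes with a mean of at least 50. In liver, same-numbered samples gave only 2 pairs. Same-numbered TM and control samples deviated together in B6 kidney (r = 0.252 to 0.477) and CAST kidney (0.252 to 0.533). In F1 kidney r was 0.509, -0.03 and 0.485 for numbers 1, 2 and 3, and 0.523 for TM 3 with control 2. The labels do not tie a number to an animal. Alternatives were other pseudocounts (0.5 and 5), filters and scalings, limma without the trend, edgeR, DESeq2, a replicate block, each library left out, and libraries rich in receptor reads left out. Leaving out F1 liver control 2 with these was added after seeing the data.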

Additional observations from a re-analysis of the deposited data

Results flagged for a closer look

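The TM effect on Fgf21 differed between the tissues by a test of the difference itself. Liver minus kidney was -4.30 in B6 (SE 0.77, adjusted p = 0.0115 by limma) and -2.78 averaged over genotypes (SE 0.58, adjusted p = 0.00104). In B6 the 3 control kidneys held 1 read of Fgf21 together, and the difference ranged from -6.34 to -2.36 over the other settings. No cause of the difference was tested.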

How the results depend on the processing

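Fgf21 and Gdf15 were called higher in 6 of 6 tables with either other pseudocount, the higher filter, TMM scaling, the median set to 0, DESeq2 and the replicate block. Without the trend, the log2 fold changes stayed at 3.32 for Fgf21 and 4.16 for Gdf15 in B6 liver and 3.81 and 4.44 in F1 liver, none past the threshold, and the F1 liver values also missed it with no filter. By edgeR, Fgf21 in F1 liver was 3.46 and missed it. With 1 library left out, F1 liver gave 2.98 to 4.56 for Fgf21 and 3.62 to 5.03 for Gdf15. For Klb, B6 liver was -1.10 without the libraries rich in receptor reads and -1.13 to 0.48 with 1 library left out, CAST liver was 0.79 by DESeq2 and 0.58 to 1.02 with 1 left out, and F1 kidney was -0.25 by edgeR, -0.21 by DESeq2 and -0.29 to 0.80 with 1 left out.

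For liver minus kidney, Fgf21 in B6 was -2.36 with a pseudocount of 5. Klb in CAST was 0.0157 with a pseudocount of 5 and -0.83 to 0.32 with 1 library left out. Gdf15 in F1 was 0.27 without the libraries rich in receptor or repeat reads and -1.08 to 0.34 with 1 left out, and averaged over genotypes it was 0.0427 with the replicate block, 0.19 without those libraries and -0.35 to 0.13 with 1 left out.

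For genotype, F1 minus the parental mean in liver was 0.20 for Fgf21 and 0.0356 for Gdf15 without the receptor-rich libraries, 0.41 and 0.63 without the receptor- or repeat-rich ones, and -1.51 to 0.0669 and -1.11 to 0.31 with 1 left out. In kidney, CAST minus B6 for Fgf21 was -0.0833 with a pseudocount of 0.5, -0.71 by edgeR and -1.03 by DESeq2, and for Gdf15 it was -0.0181 with a pseudocount of 5 and -0.0775 to 0.24 with 1 left out. For Klb it was -0.25 to 0.90 with 1 left out. F1 minus the parental mean for Fgf21 was -2.37 with the replicate block, past the threshold (adjusted p = 0.0164), -1.41 with a pseudocount of 5, -2.79 with 0.5, -3.10 by edgeR, -3.24 by DESeq2 and -2.83 to -2.08 with 1 left out. For Gdf15 it was 0.00991 with the median set to 0, 0.0324 by DESeq2, 0.51 without the receptor-rich libraries and -0.38 to 0.51 with 1 left out. The F test for Fgf21 gave an adjusted p of 0.0197 by DESeq2 and 0.0146 with the replicate block. The causes were not tested. Klb in kidney rests on 2 to 22 reads per library, which limits what could be seen there.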
